A study of Mus musculus with 8 samples.

Results

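The 8 genes described here are markers of GABAergic interneurons, the inhibitory nerve cells of the forebrain: Gad1, Gad2, Slc32a1, Pvalb, Lhx6, Reln, Erbb4 and Nxph1. They were taken by gene symbol from a table of 41128 genes, all 8 were found, and all 8 were among the 15771 genes kept by the filter on low counts. Their levels came from RNA-seq of poly(A) RNA of the corpus callosum, the white matter tract that joins the hemispheres. There were 4 libraries of mice given LAQ (read here as the immunomodulator laquinimod) at 5 mg/kg, numbered 5 to 8, and 4 libraries of control mice given purified water, numbered 1 to 4. All of these mice were PLP-150Q, 3 months old at the start and 5 months old after 2 months of treatment. PLP-150Q is a transgenic model of Huntington's disease in which a myelin gene promoter directs a mutant huntingtin fragment to oligodendrocytes. Both groups carried the transgene, so no mouse without it enters these comparisons. The labels do not tie each library to its own mouse, and the p-values measure the spread between these libraries, which may be technical.

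Interneurons make GABA from glutamate, load it into vesicles and release it onto other neurons. They arise in the ventral forebrain, migrate into cortex and hippocampus, and settle as subclasses that are told apart by calcium-binding proteins, peptides and transcription factors. Few neuron bodies lie in callosal white matter, and the neighbouring cortex, hippocampus, septum and striatum all hold GABAergic cells. The markers differ in breadth. Gad1, Gad2 and Slc32a1 are used by every GABAergic neuron, striatal projection neurons included, whereas Lhx6 and Pvalb mark cells from the medial ganglionic eminence and parvalbumin cells among them. In such bulk tissue, fewer cells of a type and less RNA per cell cannot be told apart.

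The libraries held 9634156 to 12021429 counted reads in LAQ and 8790749 to 11972197 in control. Values are CPM, each count scaled to a common library size after adjustment by the trimmed mean of M values (TMM). Myelin RNA was abundant in every library, with Mbp at 6885 to 8887 CPM in LAQ and 6391 to 7620 CPM in control. Grey matter RNA was present as well, since Slc17a7, the vesicular glutamate transporter of cortical excitatory neurons, stood at 1160, 1178, 459 and 1133 CPM in LAQ 5, 6, 7 and 8, against 944 to 1228 CPM in control. LAQ 7 therefore stood apart from the other LAQ libraries in its neuronal makeup, and results that rest on it are given with and without it. LAQ 5 and LAQ 7 were also the extremes for the list of striatal projection neuron markers, of which 9 of 10 symbols were in the table. Its summed level was 720, 1910, 4799 and 2428 CPM in LAQ 5 to 8 and 1914 to 2529 CPM in control.

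The genes lie on 5 chromosomes in GRCm38 with the GENCODE M21 annotation, and 4 of the 8 are on chromosome 2. These are Gad2 (22622205 to 22693874), Lhx6 (36081953 to 36105408), Gad1 (70553072 to 70602014) and Slc32a1 (158610767 to 158615748). Reln lies on chromosome 5 (21884454 to 22344702), Erbb4 on chromosome 1 (68032186 to 69108059), Nxph1 on chromosome 6 (8948431 to 9249032) and Pvalb on chromosome 15 (78191114 to 78206400). All 8 are annotated as protein-coding. Exons of Slc32a1 overlap those of the antisense gene Gm14205 over 697 bases, and exons of Reln overlap the antisense gene Gm10475 over 246 bases. The strand setting of the counting is not given in the sources used here, so reads in those stretches cannot be assigned with certainty. Gm14205 had 64, 77, 157 and 75 counts in LAQ 5 to 8, against 51 to 103 counts in control, and Gm10475 had at most 19 counts in a library.

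The 250 bases before the annotated start of 4 of the genes are shown, from RefSeq on GRCm38.p6, because Gad2 and Slc32a1 varied together across the libraries, Gad1 makes the same product as Gad2, and Reln was the gene that differed once LAQ 7 was left out. The RefSeq starts are not always the GENCODE starts given above. The Gad1 window lies inside the GENCODE span of Gad1, and the Gad2 window runs past the GENCODE start of Gad2. Capitals mark matches on either strand to any of 5 motifs. The GC box, which binds Sp family factors, was searched as GGGCGG. The E-box, which binds basic helix-loop-helix factors, was searched as CACGTG. The TATA box, which positions the polymerase at some promoters, was searched as TATAAA. The cAMP response element, which binds CREB, was searched as TGACGTCA. The core that many homeodomain proteins bind, LIM homeodomain factors among them, was searched as TAATTA.
Gad1 (chr2:70561879-70562128, plus strand): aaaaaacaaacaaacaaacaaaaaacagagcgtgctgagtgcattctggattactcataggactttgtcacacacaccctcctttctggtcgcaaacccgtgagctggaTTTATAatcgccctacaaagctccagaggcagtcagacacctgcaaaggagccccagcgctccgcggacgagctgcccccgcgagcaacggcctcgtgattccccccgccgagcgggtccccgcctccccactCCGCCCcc
Gad2 (chr2:22622077-22622326, plus strand): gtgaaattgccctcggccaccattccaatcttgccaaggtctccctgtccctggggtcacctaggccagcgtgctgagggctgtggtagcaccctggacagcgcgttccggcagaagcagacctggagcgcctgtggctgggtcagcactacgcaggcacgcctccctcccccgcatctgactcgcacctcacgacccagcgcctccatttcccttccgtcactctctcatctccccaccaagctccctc
Slc32a1 (chr2:158610508-158610757, plus strand): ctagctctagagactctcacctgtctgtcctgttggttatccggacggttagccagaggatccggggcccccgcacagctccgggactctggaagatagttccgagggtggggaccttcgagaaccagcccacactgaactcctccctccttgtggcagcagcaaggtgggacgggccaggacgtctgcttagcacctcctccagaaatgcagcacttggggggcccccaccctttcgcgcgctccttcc
Reln (chr5:22344706-22344955, minus strand): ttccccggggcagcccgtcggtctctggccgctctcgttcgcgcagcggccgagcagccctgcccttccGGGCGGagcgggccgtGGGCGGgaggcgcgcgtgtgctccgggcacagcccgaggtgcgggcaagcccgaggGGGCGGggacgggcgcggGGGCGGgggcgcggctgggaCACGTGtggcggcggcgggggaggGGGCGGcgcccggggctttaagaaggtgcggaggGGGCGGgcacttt
The Reln window is 80.0% G and C, at the 98.9th percentile of 32851 promoter windows, and holds 6 GC boxes and 1 E-box. Of all windows, 32.7% hold a GC box, 6.02% an E-box and 12.4% a TATA box. The Gad1 window holds 1 GC box, close to the start, and 1 TATA box letter match on the other strand at 141 bases before it. The Gad2 and Slc32a1 windows, at 64.0% and 62.4% G and C, hold none of these letters. The other 2 motifs, found in 1.546% (TGACGTCA) and 4.84% (TAATTA) of all windows, were matched in none of the 4.

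Levels between genes were compared per kilobase of annotated exon. The length was the union of the exons of all GENCODE M21 transcripts of a gene, expressed or not. It was 7.639 kilobases for Gad1, 12.355 for Erbb4 and 23.738 for Reln, and the order below depends on it. Gad1 was the highest, at 61.5 ± 13.0 CPM per kilobase in LAQ and 51.9 ± 5.12 in control (SD, n = 4 each). Pvalb came next, at 39.2 ± 3.43 in LAQ and 42.0 ± 6.85 CPM per kilobase in control, ahead of Gad2 at 32.6 ± 10.7 in LAQ and 30.0 ± 3.11 in control. Slc32a1 (11.4 ± 4.85 in LAQ, 11.8 ± 1.81 in control) and Nxph1 (10.6 ± 0.57 in LAQ, 10.9 ± 0.70 in control) overlapped in both groups and are not ordered here. Lhx6 stood at 5.24 ± 0.57 CPM per kilobase in LAQ and 5.51 ± 0.56 in control. The lowest were Erbb4 (2.62 ± 0.51 in LAQ, 2.85 ± 0.30 in control) and Reln (1.94 ± 0.65 in LAQ, 2.14 ± 0.15 in control), whose ranges overlapped in LAQ. The ranges of Gad1 and Pvalb overlapped in control, and those of Pvalb and Gad2 in LAQ.

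LAQ against control asked whether treatment altered these markers, and none of the 8 differed past the threshold when all libraries were used. By edgeR's quasi-likelihood test, 0 of the 8 had an adjusted p under 0.05, against 0% of all genes tested, and 0 of the 8 had an unadjusted p under 0.05, against 11.1% of all genes. In none of the 8 did the groups separate, against 6.39% of all genes, 3.61% of them with LAQ lower. The log2 fold change was positive for 2 of the genes and negative for 6, with a median of -0.06 beside -0.0012 over all genes tested. DESeq2 called 129 genes (0.837% of those it adjusted) and none of the 8.

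**Figure D1:**
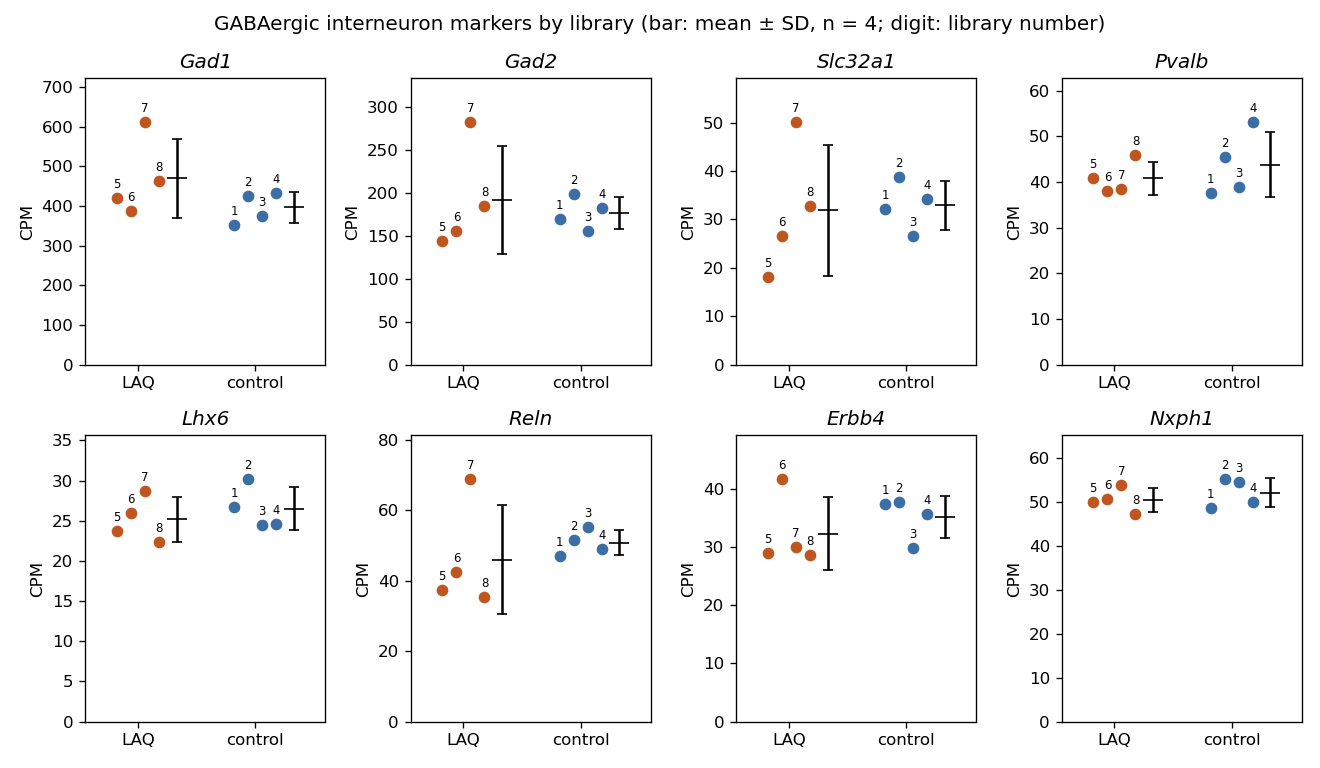
Level of each interneuron marker in every library, in CPM on a linear axis from 0, with LAQ in orange and control in blue and the mean ± SD (n = 4) beside each group. LAQ 7 is the highest point for Gad1, Gad2, Slc32a1 and Reln, and the groups overlap in all 8 panels.

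Gad1 encodes the larger of the glutamate decarboxylases, the enzyme that makes most of the cell's GABA. It stood at 420, 387, 611 and 462 CPM in LAQ 5, 6, 7 and 8, against 353, 426, 376 and 434 CPM in control 1 to 4. LAQ 7 was above every other library, and the other LAQ libraries lay within or just above the control range. Gad1 averaged 470 ± 99.2 CPM in LAQ and 397 ± 39.1 CPM in control (SD, n = 4 each). Its log2 fold change of 0.24 ± 0.13 (SE) had the smallest p-value of the 8 genes, with an edgeR adjusted p of 0.504 and a 95% interval of -0.04 to 0.53. Without LAQ 7 the log2 fold change was 0.09 ± 0.09 (SE, edgeR adjusted p = 0.612).

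Gad2 encodes the second glutamate decarboxylase, which supplies GABA at synaptic vesicles. It stood at 144, 155, 282 and 185 CPM in LAQ 5, 6, 7 and 8, against 169, 198, 155 and 182 CPM in control 1 to 4. LAQ 5 was below every control library, LAQ 7 was far above every one, and the groups overlapped. The log2 fold change was 0.12 ± 0.18 (SE, edgeR adjusted p = 0.844) with all libraries and -0.13 ± 0.10 without LAQ 7, so its direction turned with 1 library.

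Slc32a1 encodes the transporter that fills synaptic vesicles with GABA. It stood at 18.1, 26.6, 50.2 and 32.8 CPM in LAQ 5, 6, 7 and 8, against 32.2, 38.8, 26.5 and 34.2 CPM in control 1 to 4. The LAQ group held both the lowest and the highest library, a 2.77-fold range, and the groups overlapped. The group means were almost equal, at 31.9 ± 13.6 CPM in LAQ and 32.9 ± 5.06 CPM in control (SD, n = 4 each). The log2 fold change was -0.04 ± 0.24 (SE, edgeR adjusted p = 0.968), or -0.35 ± 0.17 without LAQ 7 and 0.15 without LAQ 5. The lowest value rests on 190 reads, with a counting error of 7.25%, which is small beside this spread.

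Pvalb encodes parvalbumin, the calcium buffer of fast-spiking interneurons. It stood at 40.8, 38.1, 38.5 and 45.9 CPM in LAQ 5, 6, 7 and 8, against 37.6, 45.4, 38.9 and 53.1 CPM in control 1 to 4. LAQ 7 was unremarkable here, and control 4 was the highest library. The log2 fold change was -0.10 ± 0.11 (SE, edgeR adjusted p = 0.780).

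Lhx6 encodes the LIM homeodomain factor that specifies parvalbumin and somatostatin cells. It stood at 23.7, 25.9, 28.7 and 22.4 CPM in LAQ 5, 6, 7 and 8, against 26.7, 30.2, 24.5 and 24.6 CPM in control 1 to 4. The groups overlapped throughout, with control 2 the highest and LAQ 8 the lowest. The log2 fold change was -0.07 ± 0.11 (SE, edgeR adjusted p = 0.853).

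Reln encodes reelin, a secreted glycoprotein made by layer 1 and other interneurons and, early in life, by Cajal-Retzius cells. It stood at 37.2, 42.5, 68.9 and 35.5 CPM in LAQ 5, 6, 7 and 8, against 47.1, 51.6, 55.3 and 49.1 CPM in control 1 to 4. LAQ 5, 6 and 8 lay below every control library, and LAQ 7 lay above every one. With all libraries the log2 fold change was -0.14 ± 0.18 (SE, edgeR adjusted p = 0.823).

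Without LAQ 7, Reln fell to 38.4 ± 3.64 CPM in LAQ (SD, n = 3), against 50.8 ± 3.51 CPM in control (SD, n = 4), and it was the 1 gene of the 8 past the threshold. Its log2 fold change was then -0.40 ± 0.09 (SE), with a 95% interval of -0.60 to -0.20 and an edgeR adjusted p of 0.0434. That fit called 2.13% of all genes in either direction and 1.4% as lower. The adjusted p of Reln ran from 0.0434 to 0.9749 over the 18 alternatives, and no other alternative took it past the threshold. Its log2 fold change was -0.50 with the cortical score as covariate, -0.53 with the myelin score, -0.10 with the striatal score and -0.37 without LAQ 5 and LAQ 7. Without LAQ 7 the groups also separated for Reln, as 8.7% of all genes did with LAQ lower and 7.88% with LAQ higher. The exact permutation p was 0.0286, the smallest that 35 assignments can give. LAQ 7 was the only LAQ library that did not lie below every control library for Reln. Leaving it out therefore fixed both the separation and this p-value in advance, and nothing is concluded from them. The edgeR result without LAQ 7 rests on leaving out that same library, so nothing is concluded from it either. Over all libraries the exact permutation p of Reln was 0.457. Cajal-Retzius cell markers were of little use as a check, since Lhx1, Lhx5, Ebf3 and Nhlh2 were below the filter on low counts. The list summed to 46.9 to 64.2 CPM in LAQ and 48.3 to 62.8 CPM in control. Lists of neighbouring regions also varied. The hippocampal and dorsal midline list summed to 454 to 723 CPM in LAQ and 385 to 552 CPM in control, and the thalamic and habenular list to 212 to 363 CPM in LAQ and 320.1 to 457 CPM in control. Their part in the Reln result was not tested.

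Erbb4 encodes the neuregulin receptor that interneurons carry at their excitatory inputs. It stood at 29.1, 41.7, 30.0 and 28.6 CPM in LAQ 5, 6, 7 and 8, against 37.4, 37.8, 29.9 and 35.7 CPM in control 1 to 4. LAQ 6 was the highest library of all, and the other LAQ libraries lay near the lowest control. The log2 fold change was -0.12 ± 0.13 (SE, edgeR adjusted p = 0.778), or -0.27 without LAQ 6.

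Nxph1 encodes neurexophilin 1, a secreted ligand of alpha-neurexins. It was the steadiest of the 8, at 49.9, 50.7, 53.7 and 47.1 CPM in LAQ 5, 6, 7 and 8, against 48.5, 55.1, 54.6 and 49.9 CPM in control 1 to 4. Its coefficient of variation was 5.38% in LAQ and 6.42% in control, and its log2 fold change was -0.05 ± 0.08 (SE, edgeR adjusted p = 0.866). The 95% interval, from 0.86-fold to 1.09-fold, was the narrowest of the 8. Intervals for the others reached as far as 0.67-fold and 1.40-fold for Slc32a1 and 1.44-fold upward for Gad1. Exact permutation p-values over all 70 assignments were 0.229 or more, with the lowest for Gad1, where the smallest possible is 0.0286.

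**Figure D2:**
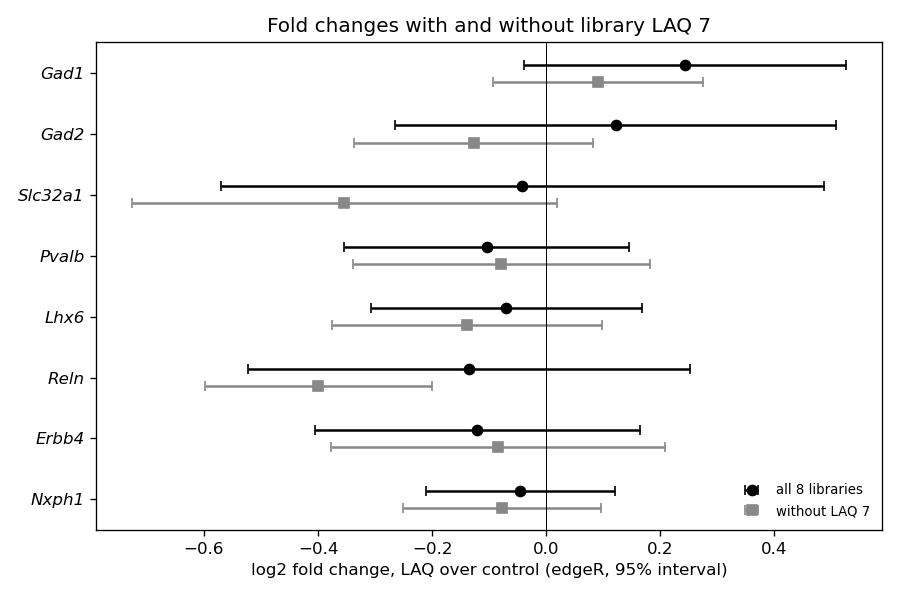
Log2 fold change of LAQ over control for each marker by edgeR, with its 95% interval, for all 8 libraries (black circles) and without LAQ 7 (grey squares). Leaving out LAQ 7 moves Gad1, Gad2, Slc32a1 and Reln furthest downward, and the interval of Reln, from -0.60 to -0.20, is the only one that leaves 0. LAQ 7 was the only LAQ library not below every control library for Reln, so nothing is concluded from that interval.

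The markers differed in how far LAQ 7 stood from the other libraries. In LAQ 7, Gad1, Gad2, Slc32a1 and Reln were 1.499, 1.66, 1.68 and 1.51 times the mean of the other 7 libraries, while Lhx6, Nxph1, Pvalb and Erbb4 were 1.13, 1.06, 0.90 and 0.87 times theirs. Of the 8 genes, 4 peaked in LAQ 7, as did 15.8% of all genes tested. In LAQ the coefficient of variation was 21.1% for Gad1, 32.8% for Gad2, 42.5% for Slc32a1 and 33.7% for Reln, against 9.86%, 10.4%, 15.4% and 6.92% in control. Pvalb and Lhx6 had 8.74% and 10.9% in LAQ, against 16.3% and 10.1% in control. Erbb4, which was highest in LAQ 6, had 19.5% in LAQ and 10.4% in control.

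Correlations across the 8 libraries were computed for all 28 pairs of markers with an exact permutation test, adjusted over the 28. Pearson's r was positive for 22 of the 28 pairs, and for 21 without LAQ 7. Gad2 and Slc32a1 were the 1 pair past the threshold, with Pearson's r of 0.91 (adjusted p = 0.0375) and Spearman's rho of 0.95 (adjusted p = 0.0319). Without LAQ 7 and LAQ 5, the libraries farthest from the median of Gad2, r was 0.97 over the other 6. Gad1 and Gad2 had an r of 0.86 (exact permutation, adjusted p = 0.260) and a rho of 0.69 (adjusted p = 0.389), and r was 0.46 without LAQ 7. Lhx6 and Pvalb, which share a lineage, had an r of -0.21 (exact permutation, adjusted p = 0.915) and a rho of -0.38 (adjusted p = 0.720). These values compare pieces of tissue, which share their makeup, and not cells.

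**Figure D3:**
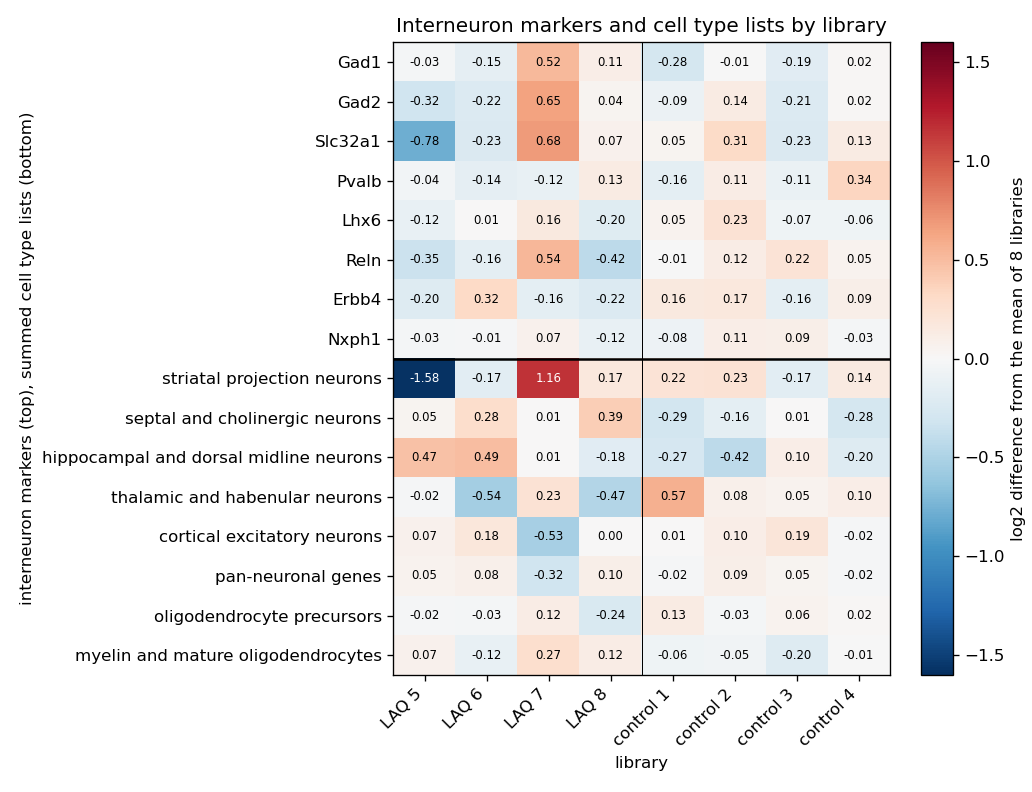
Log2 difference of each library from the mean of the 8 libraries, for the 8 markers (top, CPM) and for the summed CPM of 8 cell type lists (bottom), with LAQ libraries on the left. Slc32a1 runs from -0.78 in LAQ 5 to 0.68 in LAQ 7, as the striatal list runs from -1.58 to 1.16, whereas Nxph1 stays between -0.12 and 0.11.

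Markers of neighbouring cells moved with some of these genes. Each of the 8 was set against the summed striatal, cortical excitatory and myelin lists, which made 24 relations, tested by exact permutation and adjusted over the 24. Slc32a1 followed the striatal list with r = 0.96 (adjusted p = 0.0107) and rho = 0.88 (adjusted p = 0.0857), and r was 0.91 without LAQ 5 and LAQ 7. Gad2 had r = 0.84 (adjusted p = 0.125) and rho = 0.93 (adjusted p = 0.0536), with r = 0.86 without the same pair of libraries. With the cortical list Gad2 had r = -0.89 (adjusted p = 0.125; rho = -0.60, adjusted p = 0.454) and Gad1 r = -0.88 (adjusted p = 0.125; rho = -0.71, adjusted p = 0.346), by exact permutation. Without LAQ 7 and control 3 these were -0.38 and -0.24. With the striatal list, Pvalb had r = 0.03, Lhx6 0.52, Erbb4 0.14 and Nxph1 0.24. Their exact permutation adjusted p-values were 0.414 or more for r and 0.385 or more for rho.

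Penk, the enkephalin precursor of one class of striatal projection neuron, stood at 121, 437, 1107 and 635 CPM in LAQ 5 to 8, against 417 to 570 CPM in control. Gad1 was tied most closely to the myelin list (r = 0.89, adjusted p = 0.0470; rho = 0.86, adjusted p = 0.0857; exact permutation), with r = 0.71 without LAQ 7 and control 3. With the striatal score as covariate in edgeR the log2 fold change of Slc32a1 was 3.9e-05 and that of Gad2 0.17, and none of the 8 passed. Slc32a1 stood at -0.61 with the cortical score and at -0.64 with the myelin score, so the covariate moved its value widely. Reln had r = 0.68 with the striatal list (exact permutation, adjusted p = 0.238; rho = 0.52, adjusted p = 0.472) and r = -0.16 without LAQ 5 and LAQ 7.

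**Figure D4:**
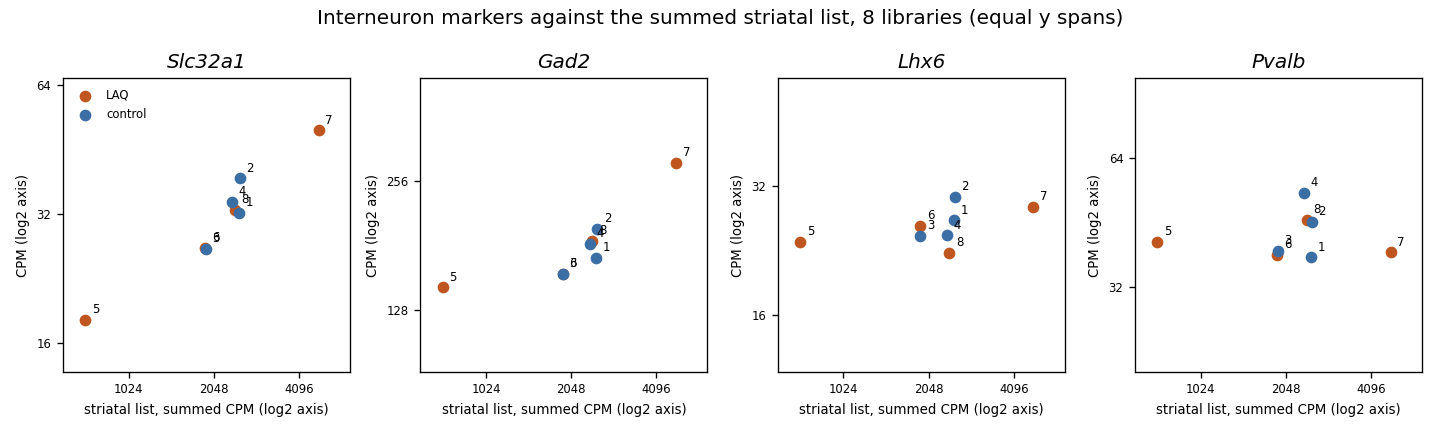
CPM of Slc32a1, Gad2, Lhx6 and Pvalb against the summed CPM of the striatal list in the 8 libraries, with log2 axes of equal vertical span, LAQ in orange and control in blue. Slc32a1 and Gad2 climb with the list between LAQ 5 (720 CPM) and LAQ 7 (4799 CPM), while the points of Lhx6 (r = 0.52) and Pvalb (r = 0.03) follow it less closely. The difference between the panels was not tested.

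Dividing by Gad1 within each library removes the library scaling. Per 100 Gad1 reads there were 9.71, 9.84, 6.30 and 9.93 Pvalb reads in LAQ 5 to 8, against 10.4 to 12.3 in control. Reln gave 7.68 to 11.26 reads in LAQ and 11.32 to 14.7 in control. These were the 2 of 7 markers whose ratio to Gad1 did not overlap between the groups, a share to be read against 9.52% of all genes in the same direction. Each had an exact permutation p of 0.0286 and an adjusted p of 0.1 over the 7 ratios. In CPM both genes overlapped between the groups, with edgeR adjusted p-values of 0.780 for Pvalb and 0.823 for Reln. Gad1 itself had a log2 fold change of 0.24, or 0.09 without LAQ 7, so the ratios also carry the difference in Gad1.

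Each marker's nearest genes were found by the mean absolute difference in z-scored log2 CPM over the 8 libraries, among 13039 candidates. Gad1 had Mobp (0.23) among them. For Gad2 they were Bbs2 (0.10) and Cldn12 (0.18), and for Slc32a1 Lzts1 (0.14) and Foxp1 (0.14). For Lhx6 they were Grik3 (0.14) and Zfp668 (0.18), and for Reln Limk2 (0.23) and Sytl5 (0.24). Nxph1 was nearest to Cinp (0.23), Erbb4 to Tnpo2 (0.23) and Rraga (0.26), and Pvalb to Ccdc50 (0.28) and Lpar6 (0.30). Among the markers themselves the shortest distances were 0.33 between Gad2 and Slc32a1 and 0.35 between Gad1 and Gad2. Many other genes were nearer. By distance from Gad2, Slc32a1 ranked 56 and Gad1 74 among all candidates, and Gad2 ranked 139 from Slc32a1 and 34 from Gad1.

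Other interneuron genes, taken from lists by known function, were counted in the same fit, and 0 of them passed edgeR's adjusted threshold with all libraries. Among 15 transcription factors of interneurons, 4 were lower and 1 higher at an unadjusted edgeR p under 0.05, where 6.33% of all genes were lower and 4.77% higher. The median log2 fold change of the list was -0.09. Satb1, needed by cells from the medial ganglionic eminence, averaged 74.1 ± 11.8 CPM in LAQ and 91.6 ± 6.91 CPM in control (SD, n = 4 each). Its log2 fold change was -0.30 ± 0.11 (SE, edgeR adjusted p = 0.349). Sp8, a factor of migrating neuroblasts and of cells from the caudal eminence, stood at 1.43 ± 0.22 CPM in LAQ and 0.59 ± 0.29 CPM in control, a level at which few reads were counted.

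Among 20 markers of interneuron subclasses, 5 were lower and 2 higher at an unadjusted edgeR p under 0.05. Over all genes 6.33% were lower and 4.77% higher at that level. The list was evenly split, with 10 positive and 10 negative log2 fold changes and a median of -0.0085. Neuropeptide Y (Npy) averaged 102 ± 11.7 CPM in LAQ and 128 ± 8.14 CPM in control, with no overlap between the groups (6.39% of all genes), at a log2 fold change of -0.33 ± 0.09 (SE, edgeR adjusted p = 0.240). Crh, corticotropin-releasing hormone, averaged 2.82 ± 0.43 CPM in LAQ and 4.80 ± 0.61 CPM in control, a low level. Its log2 fold change was -0.76 ± 0.20 (SE, edgeR adjusted p = 0.228). Lamp5, a marker of neurogliaform cells, had -0.31 ± 0.10, and Ndnf, of layer 1 cells, 0.46 ± 0.17 on the log2 scale. The peptides Sst and Vip, named after their values were seen because they define the main other subclasses, had -0.28 ± 0.11 and -0.40 ± 0.17 (SE, edgeR adjusted p = 0.403 and 0.409).

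Of 12 genes of fast-spiking cells and the perineuronal net around them, 4 were lower and 0 higher at an unadjusted edgeR p under 0.05, beside 6.33% lower and 4.77% higher over all genes, and the median was -0.14. The summed level of the list was 1186 to 1274 CPM in LAQ and 1353 to 1422 CPM in control, with Cplx1 the largest part of it. Other neuronal lists went in both directions by the sign of their log2 fold changes. All 10 hippocampal and dorsal midline genes were above 0 (median 0.72), as were 9 of 10 septal and cholinergic genes (median 0.22). Of 9 striatal projection neuron genes 6 were above 0 and 3 below it (median 0.09), whereas 8 of 10 thalamic and habenular genes were below it (median -0.37). Of 14 cortical excitatory genes 11 had a negative log2 fold change, 3 at an unadjusted edgeR p under 0.05, with a median of -0.15, and of 10 pan-neuronal genes 8 were negative, with a median of -0.05. Whether the fast-spiking list differs from these was not tested. Scn1a, the sodium channel of fast-spiking axons, averaged 87.7 ± 6.10 CPM in LAQ and 108 ± 8.35 CPM in control (SD, n = 4 each). Kcnc2, a Kv3 potassium channel of fast-spiking cells, had a log2 fold change of -0.35 ± 0.11, Kcnc1 -0.21 ± 0.08 and Cplx1 (complexin 1) -0.17 ± 0.06 (SE). All 4 had an edgeR adjusted p of 0.228 or more. Without LAQ 7, a fit that called 2.13% of all genes, Scn1a passed the edgeR test at a log2 fold change of -0.34. Pvalb itself, the marker that names these cells, had -0.10, with a 95% interval of -0.35 to 0.15 that holds the estimates of all 4. These 4 were named for the smallest p-values of their list, and their difference from Pvalb was not tested.

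Of 9 genes for the uptake, breakdown and supply of GABA, 8 had a negative log2 fold change, as did 7937 of the 15771 genes tested. Of these 8, 2 had an unadjusted edgeR p under 0.05, beside 6.33% of all genes lower at that level. Slc6a11, the GABA transporter GAT3 of astrocytes, averaged 127 ± 26.0 CPM in LAQ and 163 ± 12.6 CPM in control. Its log2 fold change was -0.36 ± 0.12 (SE, edgeR adjusted p = 0.336), and without LAQ 7 it passed the edgeR test at -0.50, as 1.4% of all genes did with LAQ lower.

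Partners of the secreted and receptor markers were measured as well. Of 9 reelin receptors and transducers, 1 was lower and 0 higher at an unadjusted edgeR p under 0.05, a share near the 11.1% of all genes. That gene, Rapgef1, the Rap1 exchange factor downstream of reelin, averaged 76.4 ± 9.75 CPM in LAQ and 99.0 ± 4.68 CPM in control (SD, n = 4 each), with no overlap, as in 6.39% of all genes. Its log2 fold change was -0.37 ± 0.09 (SE, edgeR adjusted p = 0.189), and it passed by DESeq2 with all libraries and by edgeR without LAQ 7. Vldlr, a reelin receptor, stood at 0.16 ± 0.08. Of 9 ERBB ligands and receptors beside Erbb4, none had an unadjusted edgeR p under 0.05, with Egfr at -0.31 ± 0.16 and the ligand Nrg1 at -0.39 ± 0.25. Of 10 neurexin, neurexophilin and inhibitory synapse genes beside Nxph1, Nrxn2 was the 1 at an unadjusted edgeR p under 0.05, at -0.28 ± 0.09, again a share near the 11.1% of all genes.

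**Figure D5:**
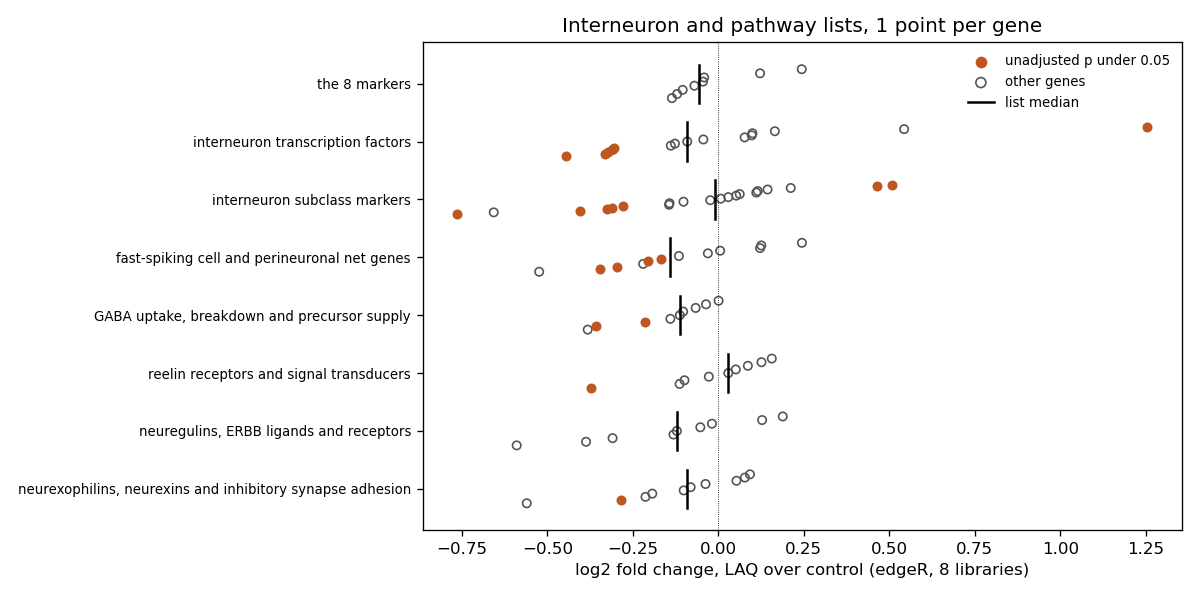
Log2 fold change of LAQ over control by edgeR for every tested gene of the 8 markers and of 7 lists of interneuron and pathway genes, with orange points at an unadjusted p under 0.05 and a black line at each list's median. The 8 markers hold no orange point, and the fast-spiking list, with a median of -0.14, holds 4, all below 0.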

How the data were processed

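Counts per gene symbol were made and deposited by the authors in one raw table. Per the submitters' processing notes, the build was GRCm38.p3 and the tools named were STAR 2.5.2b, DESeq2 1.10.1, HTSeq and bcl2fastq 2.17.1.14. The annotation release, strand setting and read filters are not given in the sources used here. A second deposited table, normalized, was not used, and 0 columns of the raw table were left out.

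Genes were kept by filterByExpr (minimum count 10, minimum total 15), scaled by TMM and tested with edgeR 4.0.16's quasi-likelihood test (limma 3.58.1, R 4.3.3), two-sided, LAQ against control, with no covariate and Benjamini-Hochberg adjustment over all genes tested at a threshold of 0.05. The SE is the log2 fold change over the square root of F. Log2 CPM used a prior count of 2. DESeq2 1.42.0 was an alternative. The steps were tested on simulated counts. The members and lists were chosen with earlier results of these data known. Named genes were the 8 markers, up to 4 genes of smallest p per list, the 2 nearest genes of each marker, and markers of myelin and cortical neurons (Mbp, Slc17a7). Some genes under this rule are not reported here. Sst, Vip and the ratios to Gad1 and the relations with 3 cell type lists were chosen after values were seen. Promoter windows hold 250 bases, and all 8 genes were matched by symbol. Intervals are at 95% and counting error takes reads as independent molecules. Figures used matplotlib 3.10.9.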

Additional observations from a re-analysis of the deposited data

Results flagged for a closer look

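Among 134 groups of 4 libraries examined for a library far from the others, 7 were marked, where chance marks about 1 in 20. The measure is the gap to the nearest library divided by the range of the group.

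One marker was among them: Erbb4 in LAQ 6, at 41.7 CPM against 28.6 to 30.0 CPM in the other LAQ libraries (0.895). Of the others, 3 concerned LAQ 7. Slc17a7 stood at 459 CPM there against 1133 to 1178 CPM in the other LAQ libraries (0.937), the summed pan-neuronal list at 6152 against 7985 to 8222 CPM (0.885), and Sytl5, one of the genes nearest to Reln, at 7.25 against 2.39 to 3.15 CPM (0.844). The last 3 concerned control libraries. Mbp stood at 6391 CPM in control 3 against 7414 to 7620 CPM in the other control libraries (0.832). The summed neurexin and inhibitory synapse list stood at 1191 CPM in control 2 against 1099 to 1108 CPM (0.897), and the summed thalamic and habenular list at 457 CPM in control 1 against 320.1 to 331 CPM (0.921).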

How the results depend on the processing

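The 18 alternatives recomputed 144 fold changes of the 8 markers, and 1 of these passed the threshold, that of Reln without LAQ 7. Library size alone and median-of-ratios scaling kept the sign of all 8. Over all genes, 25 passed without an expression filter, 129 by DESeq2, 1 by voom with sample weights, 361 with the cortical, 23 with the striatal and 327 with the myelin score as covariate, and 62 with LAQ 5 and LAQ 7 both left out. Leaving out 1 library gave 0 to 339 genes, and 0 to 1 of the 8 markers, the upper values without LAQ 7. The median log2 fold change of the 8 stayed between -0.15 and -0.0054.

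Signs turned in 16 of the 144. With the cortical and the myelin score, Gad1 stood at -0.072 and -0.13, Gad2 at -0.33 and -0.40, and Erbb4 at 0.061 and 0.057. With the striatal score Slc32a1 stood at 3.9e-05. Gad2 stood at -0.043 by voom and at -0.044 with LAQ 5 and LAQ 7 left out, where Erbb4 stood at 0.013. Leaving out 1 library, Slc32a1 ran from -0.35 to 0.15, Gad2 from -0.13 to 0.24, Lhx6 from -0.14 to 0.0014, Pvalb from -0.17 to 0.011 and Reln from -0.40 to -0.03. The cause of these turns was not tested. In the lists (alternatives chosen after seeing the data), genes lower at an unadjusted edgeR p under 0.05 were counted again. Without LAQ 7 they numbered 5 of 15 transcription factors, 4 of 20 subclass markers, 5 of 12 fast-spiking genes and 3 of 9 GABA handling genes. With the striatal score they numbered 4, 5, 4 and 2. The share of all genes lower at that level was not counted in these fits, so nothing is concluded from these counts. No paired analysis was possible because the groups share no replicate number. The lowest marker count in a library was 190, for Slc32a1.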
